A study of Homo sapiens with 6 samples.

Results

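The nuclear-encoded genes of the respiratory chain and ATP synthase were examined in A375 cells treated with ozonated olive oil (OZO). The genes were taken by symbol from the comparison that the authors deposited, as the NDUFA, NDUFB, NDUFC, NDUFS and NDUFV genes, SDHA to SDHD, the UQCR genes, the COX4 to COX8 genes and the ATP5 genes. Of 95 rows that matched, 8 were readthrough, antisense, divergent or pseudogene entries and were left out, so 87 genes of 28395 in all remained. They comprised 36 genes of complex I, 4 of complex II, 9 of complex III, 19 of complex IV and 19 of complex V. NDUFA4 and its paralog NDUFA4L2 were placed in complex IV, where the NDUFA4 protein is found, in spite of their symbols.

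RNA-seq was performed on A375, an established human melanoma cell line, after 6 h with 0.01% OZO or with 0.01% olive oil (OLO), the oil from which OZO is made. Each group had 3 libraries, and no group without oil was analysed here. The labels number the libraries of a group without naming their cultures, while a figure legend of the study describes the A375 expression data as coming from independent experiments. The p-values measure the spread between these libraries. The deposited table holds group statistics and no value of a single library, so each gene is described by its mean level in OLO and in OZO, and how many libraries moved the same way is not known.

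The respiratory chain lies in the inner membrane of mitochondria. Complex I (NADH dehydrogenase) and complex II (succinate dehydrogenase) pass electrons to coenzyme Q, complex III passes them on to cytochrome c, and complex IV (cytochrome c oxidase) passes them to oxygen. Complexes I, III and IV pump protons, and complex V (ATP synthase) makes ATP from the proton gradient. Most subunits are encoded in the nucleus and a few in mitochondrial DNA. Low oxygen stabilises the transcription factor HIF, which is known to induce the isoforms NDUFA4L2 and COX4I2 in some cells, as well as PDK1, a kinase that keeps pyruvate out of the mitochondrial citric acid cycle.

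The labelled cell type was checked against lineage markers. SOX10 and MITF, transcription factors of the melanocyte lineage, had means of 919 and 499 reads per library, and MLANA had 36.6. The pigment genes PMEL and DCT had 5.75 and 4.74 reads, and TYR was listed at 0. Among markers of other cell types, KRT14 (keratinocyte) had 77.5 reads and COL1A1 (fibroblast) 22.3, whereas KRT5, COL1A2 and PTPRC (leukocyte) had 1.56, 0.10 and 1.07. None of these 11 markers was called different between the groups, with adjusted p of 0.249 or higher. The 6 libraries had a geometric mean of 18409902 counted fragments, and 13773 genes averaged 10 reads or more, here called genes with reads.

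The promoters of the members were searched for letters known from respiratory and hypoxia-responsive genes. RefSeq promoters (GRCh38.p14) were matched by Gene number for 71 of the 87 genes, and the 250 bases before the first listed start were searched on both strands. The letters GCGCATGCG, the core of the element bound by nuclear respiratory factor 1 (NRF1), were present in 9 of 71 members (12.7%), in 3.24% of the 10835 matched genes with reads and in 1.78% of all 27305 promoters. The letters CCGGAAG, an ETS-family element of the kind bound by GABP, were present in 17 members (23.9%), against 15.8% of genes with reads and 8.82% of all promoters. The HIF core, ACGTG or GCGTG, was present in 40 members (56.3%), against 57.1% of genes with reads and 43.1% of all promoters. The share of members was above that of genes with reads, which include most members, for the first 2 motifs and close to it for the HIF core. These differences were not tested, most members held neither of the first 2, and a match describes letters and not a bound site. The stretches around the NRF1 letters are given for 1 gene of each complex that has them, the one with the highest mean level, with the match in capitals. In 3 of the 4 the letters overlap with their own reverse complement, which lengthens the capital run by 1 base.
NDUFB4, chr3:120596141-120596222, plus strand: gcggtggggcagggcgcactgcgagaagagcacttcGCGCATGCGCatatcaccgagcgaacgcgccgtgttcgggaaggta
SDHD, chr11:112086727-112086808, plus strand: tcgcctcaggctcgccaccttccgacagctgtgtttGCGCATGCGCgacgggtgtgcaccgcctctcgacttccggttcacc
COX6A1, chr12:120437863-120437938, plus strand: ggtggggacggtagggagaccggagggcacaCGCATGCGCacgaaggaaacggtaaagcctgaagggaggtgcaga
ATP5F1C, chr10:7788119-7788176, plus strand: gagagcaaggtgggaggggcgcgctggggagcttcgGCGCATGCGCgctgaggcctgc

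The HIF core is shown in the 250 bases before the start of COX5A, which rose, and of NDUFA4, NDUFA4L2 and COX4I1, the genes of the isoform comparison, with each match in capitals. COX5A held 3 matches, which ended 178, 73 and 44 bases before the start, and NDUFA4L2 held 2, which ended 199 and 15 bases before it. NDUFA4 and COX4I1 held 0 in this window. COX6C, which also rose, and COX4I2 are not among the 71 matched genes.
COX5A, chr15:74938074-74938323, minus strand: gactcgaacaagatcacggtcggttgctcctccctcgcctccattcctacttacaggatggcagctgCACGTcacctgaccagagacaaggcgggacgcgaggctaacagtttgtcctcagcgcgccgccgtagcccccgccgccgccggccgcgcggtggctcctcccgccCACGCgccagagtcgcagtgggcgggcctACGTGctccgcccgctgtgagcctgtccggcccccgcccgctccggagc
NDUFA4, chr7:10940154-10940403, minus strand: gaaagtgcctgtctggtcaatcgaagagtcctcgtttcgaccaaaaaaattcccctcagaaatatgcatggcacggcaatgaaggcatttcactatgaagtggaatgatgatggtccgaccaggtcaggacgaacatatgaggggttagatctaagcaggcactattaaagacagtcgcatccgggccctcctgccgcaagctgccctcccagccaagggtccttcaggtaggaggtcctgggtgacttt
NDUFA4L2, chr12:57240763-57241012, minus strand: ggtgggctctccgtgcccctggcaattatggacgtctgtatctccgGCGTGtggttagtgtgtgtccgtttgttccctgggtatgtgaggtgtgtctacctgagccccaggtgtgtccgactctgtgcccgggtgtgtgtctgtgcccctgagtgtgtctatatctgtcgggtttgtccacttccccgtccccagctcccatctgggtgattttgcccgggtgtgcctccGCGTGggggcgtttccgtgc
COX4I1, chr16:85799445-85799694, plus strand: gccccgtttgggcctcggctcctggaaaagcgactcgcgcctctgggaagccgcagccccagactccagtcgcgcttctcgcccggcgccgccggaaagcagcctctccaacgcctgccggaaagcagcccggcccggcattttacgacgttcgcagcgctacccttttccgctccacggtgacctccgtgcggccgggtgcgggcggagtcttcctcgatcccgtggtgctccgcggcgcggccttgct

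The first question was whether transcripts of the respiratory chain differed after OZO from those after OLO. COX5A and COX6C, both common subunits of complex IV, rose in OZO, and 0 of the 87 genes fell. Calls here are at an adjusted p under 0.05 by the authors' limma-voom, unless another centring, threshold or adjustment is named. The 2 calls were 2.30% of the 87 genes, below the 7.04% of all 28395 genes that were called, of which 3.98% were higher and 3.06% lower. Of the 78 members with reads 2.56% were called, against 13.6% of all 13773 genes with reads. At an unadjusted p under 0.05, 15 members were higher and 3 lower, or 23.1% of 78, against 35.6% of all genes with reads. Each of these shares of the members lay below that of the table as a whole, a difference that was not itself tested. Because these are bulk RNA samples of a cell line, a change in all cells and a larger change in some of them cannot be told apart.

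The measured differences were small. All 78 members with reads differed by less than 1.5-fold, from a log2 fold change of -0.37 for NDUFV3 to 0.35 for UQCRHL. The 95% interval lay wholly within 1.5-fold in either direction for 67 of the 78 (85.9%), against 48.2% of all genes with reads. The members also had more reads than the typical gene, with a median of 1170 per library against 406, and a median standard error of 0.07 on the log2 scale against 0.13. For most members, then, the libraries bounded the change closely with the fold changes as deposited. The intervals hold no uncertainty of the centring, and their number within 1.5-fold was not computed for another centre. The median member had a log2 fold change of 0.07, against -0.01 over all genes with reads, and 59 members were above 0 and 19 below (75.6% above, against 49.2% of all genes with reads).

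The side of 0 on which a member lies changed with how the fold changes were centred. The 7012 genes without a read in any library carry a log2 fold change of 0.33 in the deposited table, which is what OLO libraries of a 1.26-fold larger effective size would give. With these genes the median of all genes is 0.19, and without them it is 0.00013. The shift of 0.19 therefore rests on genes in which no transcript was measured. Relative to 0.19, 13 of the 78 members were above 0, as were 3718 of all 13773 genes with reads. With p-values recomputed from the shifted fold changes, the members called were then 0 higher and 6 lower. The 6 were ATP5F1A, ATP5F1C, NDUFB10, NDUFV3, SDHD and UQCRFS1. The share of all genes called with this centring was not computed, so these counts stand without a background. Centred on the genes with reads, where the median is -0.01, the calls were again COX5A and COX6C. Implied reads are not scaled to library size and so cannot be compared directly between the groups. COX6C had 1601 reads per library in OLO and 1593 in OZO. In CPM, the read count scaled to library size, it was higher in OZO, since the OLO reads were divided by a larger effective size. COX5A had 1293 reads in OLO and 1183 in OZO.

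**Figure D1:**
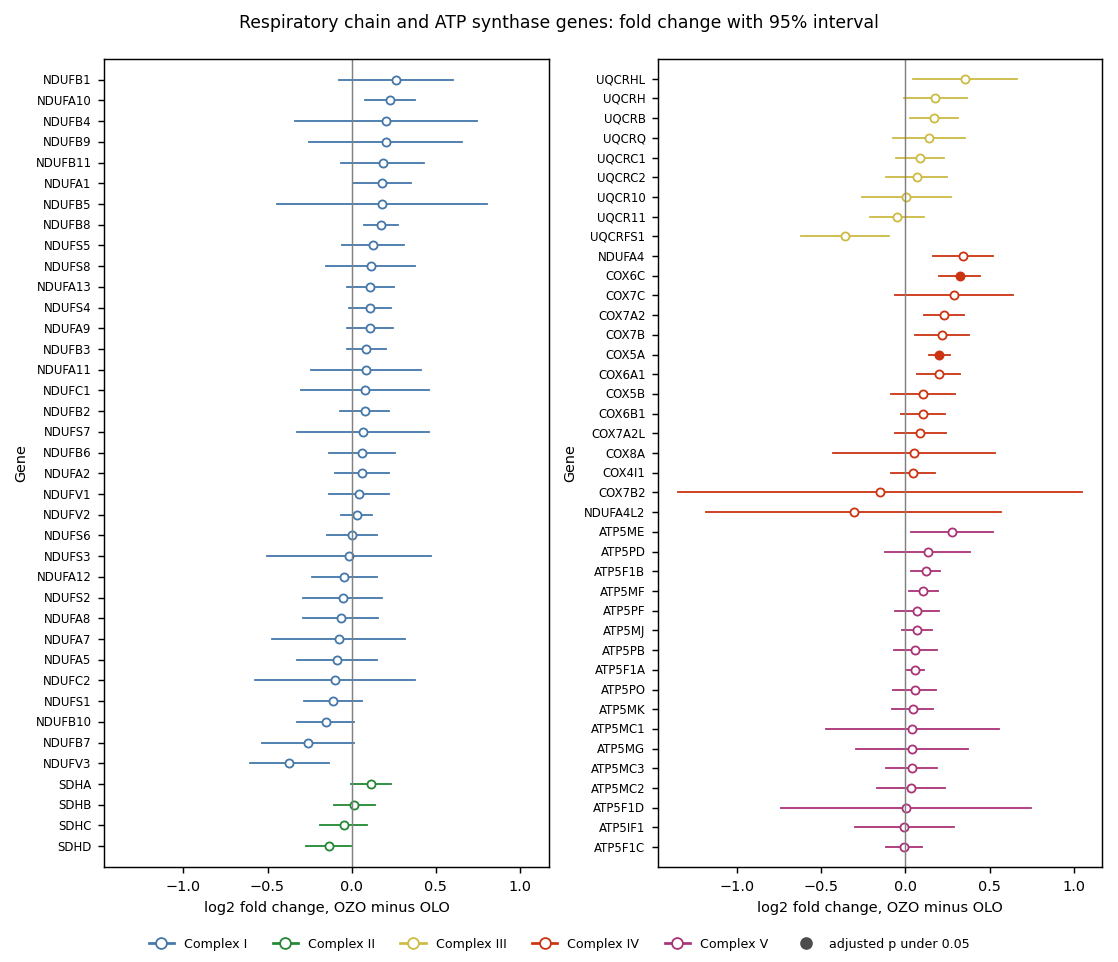
Log2 fold change of OZO against OLO (x axis) for each of the 78 members with reads (y axis), coloured by complex, with lines for the 95% interval and filled points for an adjusted p under 0.05. The 2 filled points are COX5A and COX6C, and the points run from -0.37 to 0.35. Centred on the all-gene median, which is 0.19 only with the genes without a read, every value would lie 0.19 lower and both calls would be lost. Centred on genes with reads, both calls remain.

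Complex I, the entry point for electrons from NADH, had reads for 34 of its 36 genes. None was called, the median log2 fold change was 0.07 and 23 were above 0. The lowest was NDUFV3, a small subunit of the NADH-oxidising module, with 20.1 CPM in OLO and 15.5 in OZO. Its log2 fold change was -0.37 (standard error 0.09, adjusted p 0.0900). The highest was NDUFB1 of the membrane arm, with 8.06 and 9.67 CPM, a log2 fold change of 0.26 (standard error 0.13, adjusted p 0.249). By module, the median was 0.01 for 8 genes of the NADH-oxidising N module, -0.02 for 7 genes of the Q module, which reduces coenzyme Q, and 0.11 for 19 genes of the membrane arm, which holds the proton pumps. At an unadjusted p under 0.05 stood 11.8% of the complex, against 35.6% of all genes with reads. Centred on the all-gene median, the median of complex I was -0.11. NDUFAB1, the mitochondrial acyl carrier protein that is also a subunit of complex I but has another symbol pattern, had 64.2 and 64.9 CPM and a log2 fold change of 0.02 (adjusted p 0.825).

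The N module thus held the lowest gene of the chain, and the membrane arm held the values farthest above 0 in complex I. NDUFV3 lies on chromosome 21, from 42893309 to 42913299, and NDUFB1 on chromosome 14, from 92116123 to 92121706. NDUFA6, a subunit of the Q module that cells with complex I are known to need, was listed at 0 in all libraries. NDUFA3 had a mean of 3.14 reads. An entry at 0 in this table was therefore not read as an absent transcript.

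Complex II, which is also the succinate dehydrogenase of the citric acid cycle and has no subunit from mitochondrial DNA, had reads for 4 of 4 genes. The flavoprotein subunit SDHA had 84.9 CPM in OLO and 92.0 in OZO, a log2 fold change of 0.12 (standard error 0.05, adjusted p 0.249). The membrane anchor SDHD (chromosome 11, 112086873 to 112095794) had 116 and 105 CPM, a log2 fold change of -0.14 (standard error 0.05, adjusted p 0.243). The iron-sulfur subunit SDHB and the other anchor, SDHC, lay between them, and the median of the complex was -0.02. It was the 1 complex whose median was below 0 as deposited, and -0.20 when centred on the all-gene median. All 4 intervals lay within 1.5-fold.

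Complex III had reads for 9 of 9 genes, with a median of 0.08 and 0 called. Its lowest gene was UQCRFS1, the Rieske iron-sulfur protein, which takes electrons from reduced coenzyme Q. It had 82.2 CPM in OLO and 64.1 in OZO, a log2 fold change of -0.36 (standard error 0.10, adjusted p 0.127). The highest was UQCRHL, an intronless copy of the hinge protein gene UQCRH, with 9.08 and 11.6 CPM, a log2 fold change of 0.35 (standard error 0.12, adjusted p 0.192). UQCRHL is uncertain, since UQCRH was 16.8-fold higher per kb of transcript and its reads could be counted to the copy. Its implied reads were 187 in OLO and 190 in OZO. CYC1, cytochrome c1, which belongs to complex III but not to the symbol pattern, had 53.1 and 49.0 CPM and a log2 fold change of -0.11 (adjusted p 0.249). Centred on the all-gene median, the median of complex III was -0.10.

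Complex IV held both calls. COX5A, a structural subunit on the matrix side (chromosome 15, 74919791 to 74938073), had 62.7 CPM in OLO and 72.1 in OZO. It was 15.0% higher (95% interval 10.1 to 20.2%), or 0.20 on the log2 scale, with a standard error of 0.03 (adjusted p 0.0168). COX6C, a small membrane subunit, had 77.6 and 97.1 CPM and was 25.1% higher (15.0 to 36.1%), or 0.32 on the log2 scale, with a standard error of 0.05 (adjusted p 0.0261). Centred on the all-gene median, their log2 fold changes were 0.02 and 0.14 and neither was called. Centred on genes with reads, they were 0.21 and 0.33 and both were called. The complex had 14.3% of its 14 genes with reads called, against 13.6% of all such genes, so its share was near that of the table.

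The 12 common genes of complex IV, which most tissues use, were all above 0, with a median of 0.20 and a range from 0.04 for COX4I1 to 0.34 for NDUFA4, where centring on the all-gene median left 7 of 12 above 0. At an unadjusted p under 0.05 stood 6 of these 12 (50%), against 35.6% of all genes with reads. With the 2 restricted isoforms that had reads, the median of the complex was 0.15 as deposited and -0.03 when centred on the all-gene median. COX6C has 17 pseudogenes named after it in GENCODE 44 and COX5A has 2. Both are thus among the 49 members with such a pseudogene, and the part of pseudogene reads in their values was not tested.

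Complex V had reads for 17 of 19 genes, with a median of 0.06, 15 above 0 and 0 called. It lay in the narrowest range of the complexes with more than 4 genes, from -0.01 to 0.28. ATP5F1C, the rotating shaft of the catalytic F1 part (chromosome 10, 7788177 to 7807801), had 142 CPM in OLO and 141 in OZO, a log2 fold change of -0.01 (standard error 0.04, adjusted p 0.890). ATP5ME, a small membrane subunit, had 15.8 and 19.2 CPM, a log2 fold change of 0.28 (standard error 0.10, adjusted p 0.196). The 12 stalk and membrane genes with reads had a median of 0.06 and the 4 genes of F1 a median of 0.03. ATP5IF1, which encodes the protein that inhibits ATP hydrolysis by the synthase, had a log2 fold change of -0.01. For 16 of the 17 genes the interval lay within 1.5-fold. Centred on the all-gene median, the median of complex V was -0.13.

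In the order of their medians the complexes ran from IV (0.15) through III (0.08), I (0.07) and V (0.06) to II (-0.02). The quartiles of complex IV were 0.06 and 0.23 and those of complex I -0.05 and 0.12, so that the complexes overlapped. Differences between complexes were not tested, since the genes of a complex are not replicates of a condition. As levels per kb of canonical transcript, the medians were 99.5 CPM for complex V, 94.5 for II, 71.9 for IV, 50.6 for I and 35.7 for III, against 7.39 over all genes with reads. These levels depend on the annotated length, which was 8459 bases for UQCRB and 5761 for ATP5F1A. Whether the cells use transcripts of these lengths was not tested, so the order of the complexes by level is uncertain. Chosen after their values were seen, UQCRH at 625 CPM per kb and the catalytic subunit ATP5F1B at 488 were the highest of the members. The members have short transcripts, with a median of 750 bases against 3355 for all genes with reads, and a GC content of 47.1% against 47.5%. They lie on 22 chromosomes, with at most 12 on any of them.

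**Figure D2:**
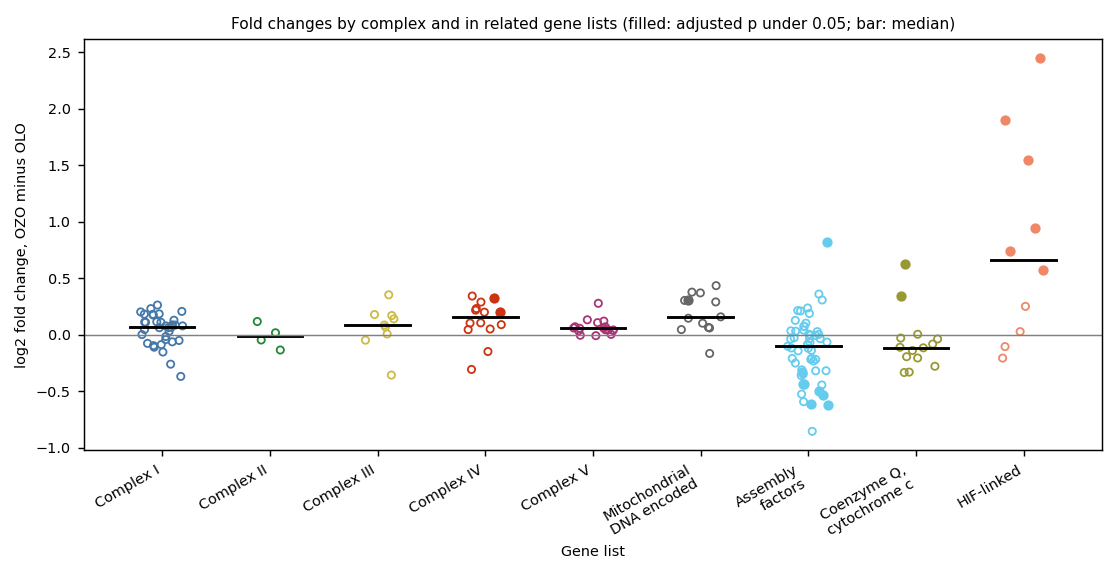
Log2 fold change of OZO against OLO (y axis) for genes with reads, by complex and by related gene list (x axis), with filled points for an adjusted p under 0.05 and a bar at each median. Complexes I to V lie between -0.37 and 0.35, while PDK1, the highest of the HIF-linked genes, stands at 2.45. The 8 filled assembly factors are 14.8% of those drawn, near the 13.6% of all genes with reads, and 7 lie below 0. Over all genes 868 of 1999 calls were lower, and the difference in direction was not tested. Centring on the all-gene median would lower every point by 0.19 and bring the medians of complexes I, III, IV and V below 0. That median is 0.19 only with the genes without a read.

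The next question was whether the hypoxia isoforms replaced their common partners. COX4I1, the common form of the subunit, had 167 CPM in OLO and 172 in OZO, a log2 fold change of 0.04 (standard error 0.05, adjusted p 0.588). That value became -0.14 when centred on the all-gene median. COX4I2, its hypoxia isoform, was listed at 0 in both groups, and no fold is given. NDUFA4 (chromosome 7, 10931943 to 10940153) had 80.3 and 102 CPM, a difference of 0.34 on the log2 scale (standard error 0.07), and its adjusted p of 0.0572 missed the threshold. NDUFA4L2 (chromosome 12, 57234903 to 57240762) had 1.501 CPM in OLO and 1.21 in OZO, or 30.5 and 19.4 implied reads. Its log2 fold change was -0.31 (standard error 0.34, 95% interval -1.19 to 0.57, adjusted p 0.572). The upper end of that interval is a rise of 48.4%, and larger rises lie outside it. Averaged over the groups, NDUFA4 was 31.1-fold higher than NDUFA4L2 per kb of transcript.

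The other restricted isoforms of complex IV, which are known from heart and skeletal muscle or from testis, were at or near the floor of 3 reads, with 1 exception. COX6A2 and COX8C were listed at 0. COX7A1 had 0.54 implied reads in OLO and 0.22 in OZO, and COX6B2 had 1.002 and 3.27. COX7B2 was measured, with 132 and 94.9 implied reads and a log2 fold change of -0.15 (standard error 0.47, adjusted p 0.844). Its common partner COX7B was 2.82-fold higher per kb. None of the 7 restricted isoforms was called. Of the 87 genes, 9 had a mean under 10 reads, 4 of them listed at 0 and 6 at or under 3 reads in both groups. Besides the 5 isoforms of complex IV, NDUFA6 and NDUFA3, they were ATP5MGL, a copy of ATP5MG, with 0.22 reads in each group, and the F1 subunit ATP5F1E with a mean of 6.15. In RefSeq the span of ATP5F1E overlaps TUBB1, which had 96.6 reads, and the readthrough entry SLMO2-ATP5E, which had 0. That of NDUFA3 overlaps TFPT, which had 0.27 reads, while NDUFA6 overlaps no other gene. The part of such overlaps in the low counts was not tested.

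**Figure D3:**
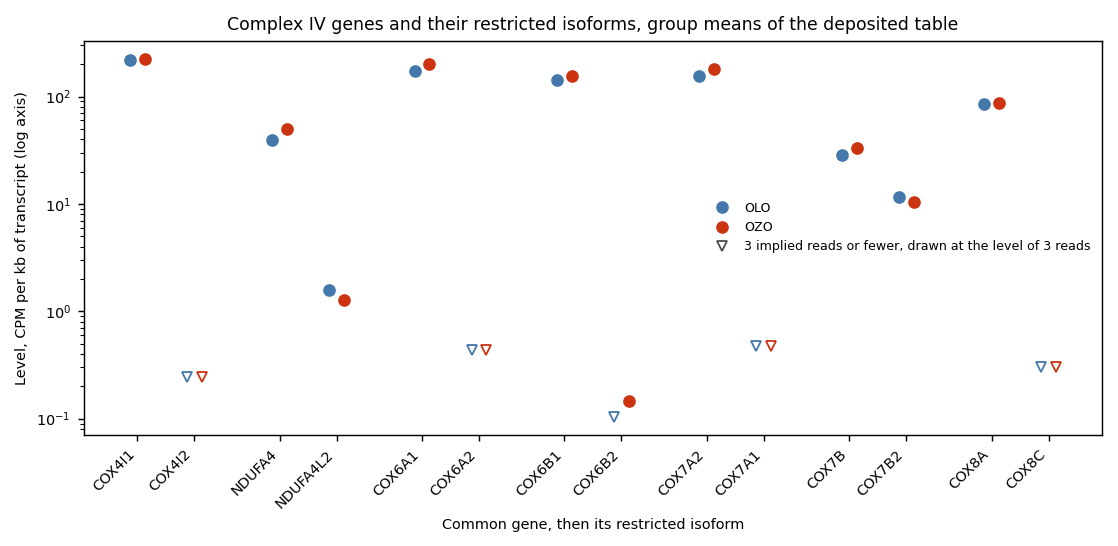
Mean level in OLO (blue) and OZO (red) for 7 common complex IV genes and their restricted isoforms (x axis), in CPM per kb of transcript on a log axis; values of 3 implied reads or fewer are drawn as open triangles at the level of 3 reads. Each common gene stands above its isoform, by 31.1-fold for NDUFA4 over NDUFA4L2 and by 2.82-fold for COX7B over COX7B2.

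A list of genes linked to both HIF and mitochondria was described beside the isoforms. It mixes genes that HIF is known to induce with ISCU, an iron-sulfur scaffold that hypoxia is known to lower, and holds MXI1, a repressor that acts in the nucleus. Of its 10 genes, 6 rose and 0 fell (60%, against 13.6% of all genes with reads), with a median of 0.66. The list was chosen with earlier results of these data known, so this share is a description only. PDK1 had 20.3 CPM in OLO and 111 in OZO and rose 5.46-fold (log2 fold change 2.45, standard error 0.15, adjusted p 0.00465). BNIP3 and BNIP3L, receptors for the removal of mitochondria, rose with log2 fold changes of 1.90 and 1.55 (adjusted ps 0.00790 and 0.0107). MXI1, FAM162A and PDK3, named after their values were seen, also rose, by 0.74, 0.94 and 0.57 on the log2 scale. Not called, and likewise given after their values were seen, were LONP1 (0.25), HIGD1A (0.03), ISCU (-0.11) and CHCHD4 (-0.21). Their adjusted p was 0.249 or higher. In the same OZO-treated cells NDUFA4L2 was at 1.21 CPM and COX4I2 was listed at 0.

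Assembly factors build the complexes and are not part of them. Of 57 listed, 54 had at least 10 reads, 1 rose and 7 fell, or 14.8% against 13.6% of all genes with reads, a share near that of the table. Over all genes 868 of 1999 calls were lower, and the difference in direction was not tested. Centred on the all-gene median, 1 assembly factor was higher and 17 were lower. The share of all genes called lower with that centring was not computed, so the 17 stand without a background. Their median log2 fold change was -0.10, with 17 above 0 and 37 below, and it became -0.28 when centred on the all-gene median. COX19, a copper-related factor for complex IV, rose from 16.4 to 28.8 CPM (log2 fold change 0.82, standard error 0.06, adjusted p 0.00563). LYRM7 and BCS1L, which act in the insertion of the Rieske protein UQCRFS1 into complex III, both fell. LYRM7 went from 81.4 to 60.2 CPM (log2 fold change -0.44, adjusted p 0.0110) and BCS1L from 30.5 to 24.4 CPM (-0.33, adjusted p 0.0224). For complex IV, COA7 fell by 0.61 and the copper chaperone SCO1 by 0.50 on the log2 scale (adjusted ps 0.0111 and 0.0181), as did COA5 and TACO1, named after their values were seen, by 0.62 and 0.53. DMAC1, a factor for complex I, fell by 0.44 (adjusted p 0.0382). Of the 25 complex IV factors with reads 20% were called.

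The 13 subunits encoded in mitochondrial DNA had a median level of 3000 CPM per kb, against 62.05 for the nuclear-encoded members with reads. ND6, a complex I subunit and the 1 protein encoded on the light strand, rose from 504 to 624 CPM (log2 fold change 0.31, standard error 0.05, adjusted p 0.0337). The median of the 13 was 0.16, with 12 above 0 as deposited and 6 above 0 when centred on the all-gene median. Whether strand was used in counting is not stated, so reads of ND6 and of the transcripts opposite to it cannot be told apart. Among 14 genes of coenzyme Q synthesis and cytochrome c, COQ10B (0.63, adjusted p 0.0126) and COQ8A (0.35, adjusted p 0.0166) rose and 0 fell, with a median of -0.11. These are 14.3% of the list, near the 13.6% of all genes with reads. CYCS, the somatic cytochrome c, had 558 and 559 CPM.

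Of 12 regulators of mitochondrial biogenesis, PPARGC1B, a coactivator of respiratory genes, fell from 15.0 to 7.54 CPM (log2 fold change -0.99, standard error 0.07, adjusted p 0.00539). GABPB1, a subunit of the ETS-family factor GABP, rose from 57.0 to 74.4 CPM (log2 fold change 0.38, standard error 0.06, adjusted p 0.0296). The 2 calls are 16.7% of the list, against 13.6% of all genes with reads. PPARGC1A, the paralog of PPARGC1B, named after its values were seen, had 1.36 CPM in OLO and 3.28 in OZO, a log2 fold change of 1.28 (standard error 0.35, adjusted p 0.121), the farthest from 0 in the list, and was not called. The transcript of NRF1 itself had 28.4 and 28.1 CPM (log2 fold change -0.01, adjusted p 0.923).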

How the data were processed

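RNA was measured in A375 cells by strand-specific paired-end RNA-seq, with 3 OLO and 3 OZO libraries grouped by their labels. According to the study's methods and the submitters' processing notes, the authors aligned reads to hg38 with HISAT2 2.1.0, counted them per gene with featureCounts 2.1.1 and compared the groups with limma 3.58.1 (voom). Normalization factors, filters on low counts, library weights and whether counting used strand are not given in the sources used here. Deposited log2 values comprise fold changes, OZO minus OLO, and the mean log2 CPM over the libraries, with 0.5 added to each count. The deposited score is the moderated t of limma, two-sided. The deposited p-values belong to it and were adjusted by the authors over all 28395 genes (Benjamini-Hochberg); recomputing gave the same values.

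No test was run on single libraries here. A gene was called where the adjusted p deposited by the authors was under 0.05, unless another setting is named. The standard error was the deposited fold change divided by its t. The 95% intervals used the degrees of freedom that link t and p (5.02 to 5.24). For another centring, the centre was taken off the fold change, and the result was divided by the same standard error. The p of this new t was adjusted again over all genes. Where stated, the deposited p-values were instead adjusted over genes with reads only. Read numbers were derived from the lowest mean value, which belongs to genes without reads; group levels come from the mean and the fold change, so they are approximate. Up to 3 reads in a group was treated as the floor, which covers counting error only. The depth of each library is unknown here. The steps were tested on simulated data. Levels per kb used the canonical transcript of GENCODE 44, matched for all 87 members.

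The members and lists were chosen with earlier results of these data known. By rule, the genes named are the called members, the isoforms, and the highest and lowest fold change of each complex. The rule also takes up to 3 called genes with the smallest p of each other list, and NDUFAB1 and CYC1. Some other names are marked as given after their values were seen. Further names outside this rule carry no mark, among them CYCS, NRF1, ATP5IF1, SDHB, SDHC, COX7A2, NDUFB8, NDUFA6, NDUFA3 and ATP5F1E. A gene that meets this rule, with its list, is not reported here. Python 3.11.15, pandas 2.3.3 and scipy 1.17.1 were used.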

Additional observations from a re-analysis of the deposited data

How the results depend on the processing

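No paired analysis was possible because the deposited table holds the comparison and no value of a single library. For the same reason no library was left out in turn and no other normalization, filter or count model was fitted. The 2 members called higher and 0 called lower became 0 and 0 at an adjusted p-value under 0.01, 7 and 1 under 0.1, and 15 and 3 at an unadjusted p-value under 0.05. Adjusting over genes with 10 or more mean reads gave 5 and 1, which were COX5A, COX6C, COX7A2, NDUFA4 and NDUFB8, and NDUFV3. At an unadjusted p-value under 0.05 stood 35.6% of all genes with reads. For the other thresholds, this adjustment and the centrings, the share of all genes was not computed. Those counts stand without a background. Centring on the median of all genes gave 0 and 6. It also moved the medians of complexes I to V to -0.11, -0.20, -0.10, -0.034 and -0.13, and COX4I1 to -0.14. The medians of complexes I, III, IV and V and COX4I1 thereby changed sign, because the shift of 0.19 exceeds them. Centring on genes with reads kept each median's sign. Leaving out members with a processed pseudogene named in the table takes out SDHA, UQCRB and ATP5F1E. None of these was called or belongs to complex IV. The 2 higher calls and the complex IV median of 0.15 therefore stayed by construction. Leaving out members with a pseudogene named after them in GENCODE 44, chosen after seeing the data, takes out COX5A and COX6C themselves, so its 0 higher calls are given by construction. Its complex IV median of -0.050 rests on 4 genes, 2 of them restricted isoforms, and for complex II no gene remained. The alternatives for assembly factors were also chosen after seeing the data. Against 1 higher and 7 lower, 0 were lower at an adjusted p-value under 0.01, 3 were higher and 12 lower under 0.1, and 3 higher and 11 lower when adjusted over genes with reads. Centring on the median of all genes gave 17 lower and a median of -0.28, and centring on genes with reads gave 2 higher. The share of all genes at these settings was not computed, so these counts of assembly factors also stand without a background. Placing NDUFA4 and NDUFA4L2 in complex I, or leaving out isoforms, copies and genes that are no structural subunit, changed no sign of a median. For the 9 members under 10 reads no difference was detectable at these counts, and the cause of the low counts was not tested.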
